A study of Homo sapiens with 26 samples.

Results

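The epithelial cell holds to the basement membrane through laminin-332 and the hemidesmosome, and 9 genes of that system were followed here across 3 human pancreatic ductal adenocarcinoma cell lines. They are LAMA3 and LAMB3, for laminin-332 chains, ITGA6, ITGB4, ITGA3 and ITGA2, for integrin receptors, COL17A1, for a transmembrane collagen, and DST and PLEC, for cytoplasmic plakins. The genes were chosen by symbol, and all 9 were found among the 62703 genes listed for Panc10.05 and for BxPC3 and the 62754 listed for AsPC-1. All 9 passed the filter on low counts in every table.

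Laminin-332 is a trimer that epithelia secrete, and LAMA3 and LAMB3 give its alpha and beta chains. Integrin alpha-6 beta-4 binds it from the basal cell surface and, together with COL17A1, is tied to keratin filaments by plectin (PLEC) and the epithelial form of dystonin (DST). Integrin alpha-3 pairs with beta-1 and binds the same laminin without joining hemidesmosomes, while alpha-2 with beta-1 is chiefly a collagen receptor.

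The study changed HNF4A, a nuclear receptor of gut, liver and pancreas that is transcribed from a P1 and a P2 promoter. In Panc10.05 and BxPC3 the P1-a2 or the P2-a8 isoform was induced with doxycycline, and the control arms (GFP-NC in Panc10.05, EV-NC in BxPC3, both called NC here) received doxycycline too. The dose was 25 ng/mL for P1-a2 and NC but 12.5 ng/mL for P2-a8 in Panc10.05, and 500 ng/mL in every BxPC3 arm. In AsPC-1, CRISPR interference targeted the P1 promoter (guides sgP1E and sgP1J), the P2 promoter (sgP2D and sgP2G) or both (sgDual2 and sgDual3), against sgNC. Each construct or guide has 2 libraries, which makes 26 libraries: 6 of Panc10.05, 6 of BxPC3 and 14 of AsPC-1. Nothing in the labels says that the 2 libraries of an arm came from separate cultures, so the p-values measure the spread between these libraries, which may be technical. The labels do not say either whether a line is a clone. The sgP1, sgP2 and sgDual groups each pool the 4 libraries of 2 guides, and the test takes all 4 as independent. Libraries of 1 guide may be more alike than those of 2 guides, so p-values for these groups may be too small.

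Total counts ran from 26079388 to 50662077 per library. HNF4A itself, in CPM (a gene's counts scaled to library size, here after TMM scaling), was 0.24 and 0.058 in the Panc10.05 controls, 10.7 and 13 CPM with P1-a2 and 37.6 and 37.6 CPM with P2-a8. In BxPC3 it was 1.08 and 0.464 CPM in the controls, 9.76 and 11.6 CPM with P1-a2 and 12.6 and 14.2 CPM with P2-a8. In AsPC-1 it averaged 213 CPM in sgNC, 129 in sgP1, 86.5 in sgP2 and 7.99 in sgDual, and only sgDual passed the test against sgNC (log2 fold change -4.73 ± 0.39, adjusted p = 6.25e-06; sgP1 adjusted p = 0.615, sgP2 adjusted p = 0.0751). Gene counts add P1 and P2 transcripts, and any transgene reads, together. The 7 epithelial markers summed to 6213 to 18350 CPM over the 26 libraries, whereas PTPRC, CD3E, MS4A1, KDR and ERG had at most 21 counts in any library. Of the epithelial markers, KRT7 was low in AsPC-1, with at most 311 counts in a library, where the highest count was 73951 in BxPC3 and 68029 in Panc10.05. Endothelial markers summed to at most 9.57 CPM and leukocyte markers to at most 47.9 CPM, most of it CSF1R in Panc10.05. Fibroblast markers summed to at most 301 CPM, nearly all of it LUM in AsPC-1.

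Set per length (RPKM, that is CPM per kilobase of a gene's merged exons), the control libraries of the 3 lines ordered the genes differently. COL17A1 led in AsPC-1, at 375 ± 30.8 RPKM (mean ± SD, n = 2), and in BxPC3, at 297 ± 18.2 RPKM, but stood at 25.2 ± 0.807 RPKM in Panc10.05. There PLEC led at 144 ± 16.8 RPKM, followed by LAMB3 at 77.6 ± 3.72 RPKM. ITGB4 was 253 ± 16.4 RPKM in AsPC-1, 142 ± 4.96 in BxPC3 and 61.9 ± 1.5 in Panc10.05. Per length, LAMA3 and DST were the lowest of the 9 in every line, between 7.14 and 28.1 RPKM on average. Merged exons take in every annotated isoform (42341 bases for DST, 14678 for LAMA3), so order and ratios per length depend on which isoforms were expressed. In CPM the order was another: DST averaged 302 in sgNC, against 185 for ITGA2, 154 for LAMA3 and 151 for LAMB3. Neighbours such as PLEC and ITGA6 in AsPC-1 (113 ± 14.2 and 110.1 ± 15 RPKM) were closer than their spread. The tables were deposited per line, so these level differences between lines were not tested.

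**Figure D1:**
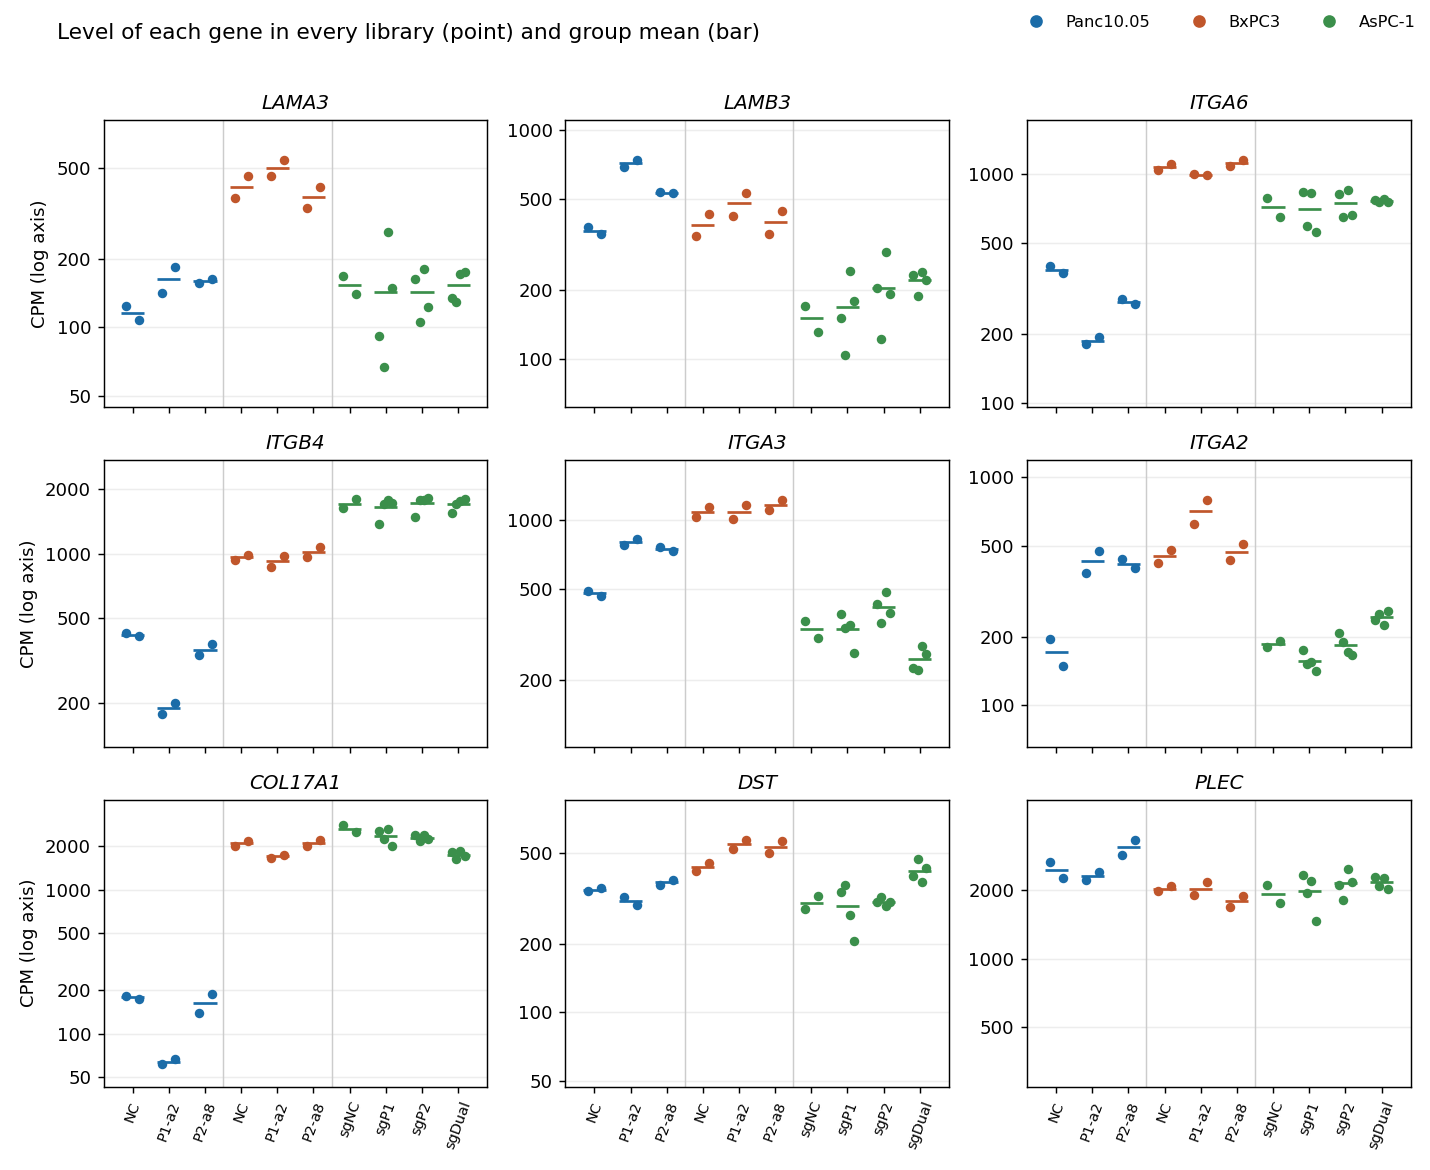
Level of each of the 9 genes in CPM on a log axis, with 1 point per library, a bar at the group mean, and vertical lines between the 3 cell lines. COL17A1, ITGA6 and ITGB4 are lowest in the Panc10.05 libraries with P1-a2, and COL17A1 lies between 61.2 and 66.8 CPM there against 1639 to 2802 CPM in the BxPC3 and AsPC-1 libraries.

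Each contrast was tested over all genes that passed the filter (edgeR's quasi-likelihood test, Benjamini-Hochberg adjustment over all genes), and a gene is said to have risen or fallen only with an adjusted p under 0.05. In the sentences below, ± after a log2 fold change is its standard error. In Panc10.05, P1-a2 raised 4 of the 9 genes and lowered 4, in a contrast where 62% of all tested genes were called. P2-a8 raised 5 and lowered 2, against 46.2% of all genes. P1-a2 compared directly with P2-a8 gave 1 gene higher and 5 lower, against 46.9% of all genes. With so many genes called, these counts are read by direction and size below. The 2 isoforms were set against the same control libraries, so their contrasts are not independent.

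In BxPC3 fewer of the 9 genes were called with the same constructs, and so were fewer of all genes. P1-a2 raised 2 genes and lowered 1, where 32% of all genes were called, and P2-a8 raised 1, where 6.99% were called. P1-a2 against P2-a8 gave 1 higher and 2 lower, where 22.5% of genes were called. In AsPC-1 none of the 9 was called with sgP1 (background 0.265%; 1 gene, ITGA2, had an unadjusted p under 0.05) or sgP2 (background 3.42%; none had), nor between sgP2 and sgP1 (background 4.3%; ITGA2 and ITGA3 had). The sgDual libraries had 2 genes higher and 2 lower than sgNC, where 35.6% of all genes were called. The same 4 genes passed in the same direction against sgP1 (background 38.3%) and against sgP2 (background 46.4%), contrasts that share the sgDual libraries. The median log2 fold change of the 9 genes, beside that of all tested genes, was -0.091 against 0.023 for P1-a2 and 0.33 against 0.0005 for P2-a8 in Panc10.05, 0.005 against -0.012 and 0.057 against 0.013 in BxPC3, and 0.085 against 0.0012 for sgDual. Where a median lies near 0, genes on either side of it had gone opposite ways or had not been called.

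**Figure D2:**
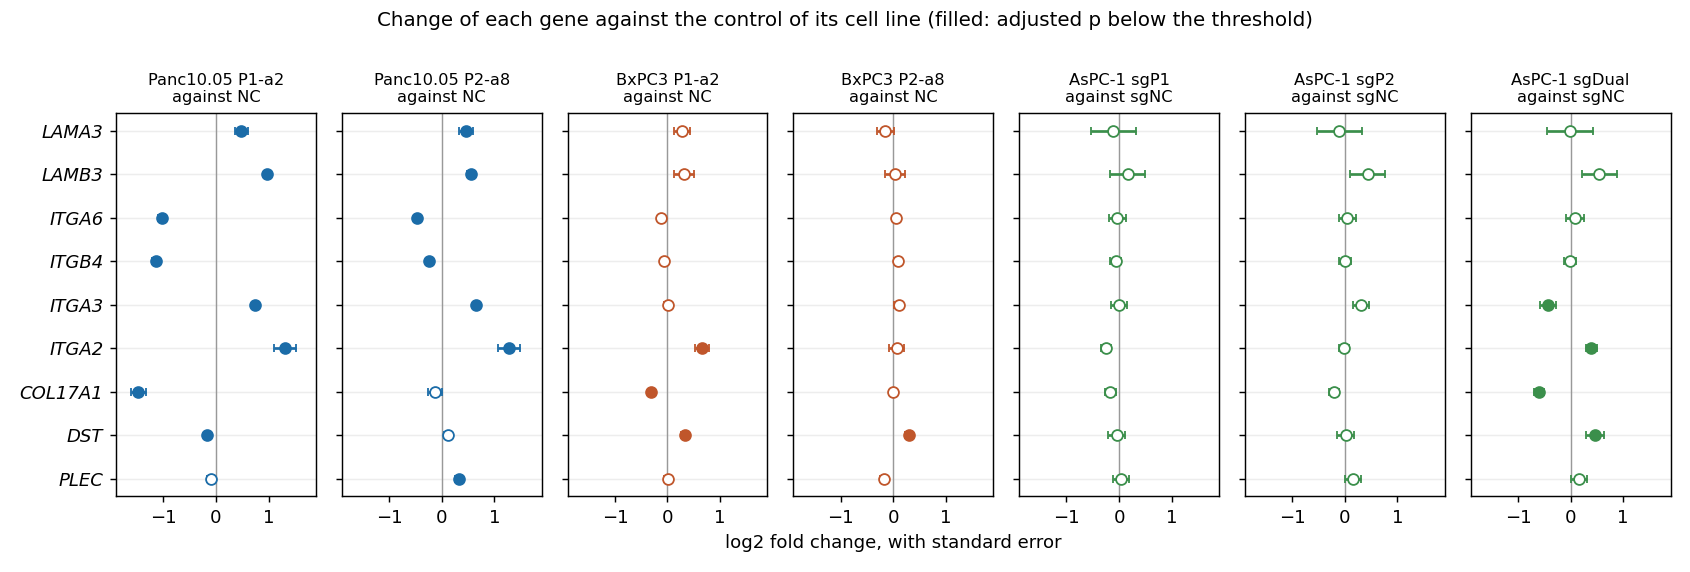
log2 fold change of each gene against the control of its line, with standard error bars, in 7 contrasts, where filled points have an adjusted p under 0.05. In Panc10.05 with P1-a2 the points split into LAMA3, LAMB3, ITGA3 and ITGA2 on the right and ITGA6, ITGB4, COL17A1 and DST on the left, and all points for sgP1 and sgP2 are open.

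The laminin chains rose with both isoforms in Panc10.05. LAMB3 (chr1:209614870-209652466, minus strand, GRCh38) read 376 and 352 CPM in the controls, 694 and 739.5 CPM with P1-a2 and 535 and 529.7 CPM with P2-a8. The 3 groups did not overlap, and LAMB3 was also higher with P1-a2 than with P2-a8 (log2 fold change 0.43 ± 0.059, adjusted p = 7.96e-08). Against the controls the changes were 0.98 ± 0.06 (adjusted p = 3.6e-18) for P1-a2 and 0.55 ± 0.059 (adjusted p = 2.81e-10) for P2-a8. LAMA3 (chr18:23689443-23956222, plus strand) read 124 and 108 CPM in the controls, 141 and 183 CPM with P1-a2 and 157 and 162 CPM with P2-a8. Its rise was smaller, 0.48 ± 0.13 (adjusted p = 0.0136) and 0.46 ± 0.13 (adjusted p = 0.0235), and the call was lost without either control library for P1-a2 (adjusted p = 0.0509 and 0.154) and without any single library of the contrast for P2-a8 (adjusted p = 0.069 to 0.22). LAMA3 was called higher with P1-a2 than with P2-a8 only without P1-a2 replicate 1 (adjusted p = 0.0428; 0.897 with all libraries). HNF4A was itself higher with P2-a8 than with P1-a2 in Panc10.05, and the doxycycline doses differed, so isoform and amount cannot be told apart in the direct contrast.

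In BxPC3 neither chain was called in the fit of all libraries, which takes no account of the replicate number. LAMA3 read 367 and 458 CPM in the controls, 461 and 538 CPM with P1-a2 and 332.2 and 412 CPM with P2-a8, and LAMB3 read 345 and 429, 424 and 534 and 352 and 445 CPM. Within every arm both genes were higher in the library numbered 2. The P1-a2 changes were 0.28 ± 0.15 (adjusted p = 0.242) for LAMA3 and 0.31 ± 0.19 (adjusted p = 0.301) for LAMB3. LAMA3 passed in the direct contrast of P1-a2 with P2-a8 when P2-a8 replicate 2 was left out (adjusted p = 0.0473) or only these libraries were fitted (adjusted p = 0.0342), against 0.115 in the fit of all libraries. The per-length ratio of LAMB3 to LAMA3 was 2.94 to 2.95 in BxPC3 controls and 2.94 to 3.19 in AsPC-1 controls, but 9.47 to 10.2 in Panc10.05 controls and 12.6 to 15.4 there with P1-a2.

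In AsPC-1 no target called a laminin chain in the main fit, but LAMA3 differed there between the guides to the P1 promoter. LAMA3 read 167 and 139.9 CPM in sgNC, 91.9 and 67.1 CPM with sgP1E and 263 and 149 CPM with sgP1J. The sgP1E libraries were the lowest of the line for LAMA3 and the first sgP1J library the highest, although both guides address the P1 promoter. Between those guides LAMA3 was lower with sgP1E (log2 fold change -1.37 ± 0.30, adjusted p = 0.0159), in a contrast where 14.5% of all genes were called, and the call was lost without sgP1J replicate 1 (adjusted p = 0.0762) or sgP1E replicate 2 (adjusted p = 0.119). LAMA3 read 162 and 106 CPM with sgP2D, 181 and 123 CPM with sgP2G, 134 and 129 CPM with sgDual2 and 172 and 175 CPM with sgDual3. With guide sgP1J left out, sgDual was called above the remaining sgP1 guide for LAMA3 (adjusted p = 0.00986; 0.854 with both guides). LAMB3 read 170.4 and 132 CPM in sgNC, 151 and 105 with sgP1E, 243 and 179.5 with sgP1J, 205 and 122 with sgP2D and 295 and 193 with sgP2G. In sgDual2 and sgDual3 it read 232 and 188, and 241 and 221 CPM. The main fit did not call LAMB3 between guides of a target. With the replicate number as a block it was lower with sgP1E than with sgP1J (log2 fold change -0.73, adjusted p = 0.000451). It was also lower with sgP2D than with sgP2G (-0.59, adjusted p = 0.0093). Without the filter on low counts both differences passed too (adjusted p = 1.87e-13 and 1.13e-08). All 4 sgDual libraries lay above both sgNC libraries for LAMB3, but the change of 0.55 ± 0.34 (adjusted p = 0.235) did not pass, and it passed when only the sgNC and sgDual libraries were fitted (adjusted p = 0.00901).

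**Figure D3:**
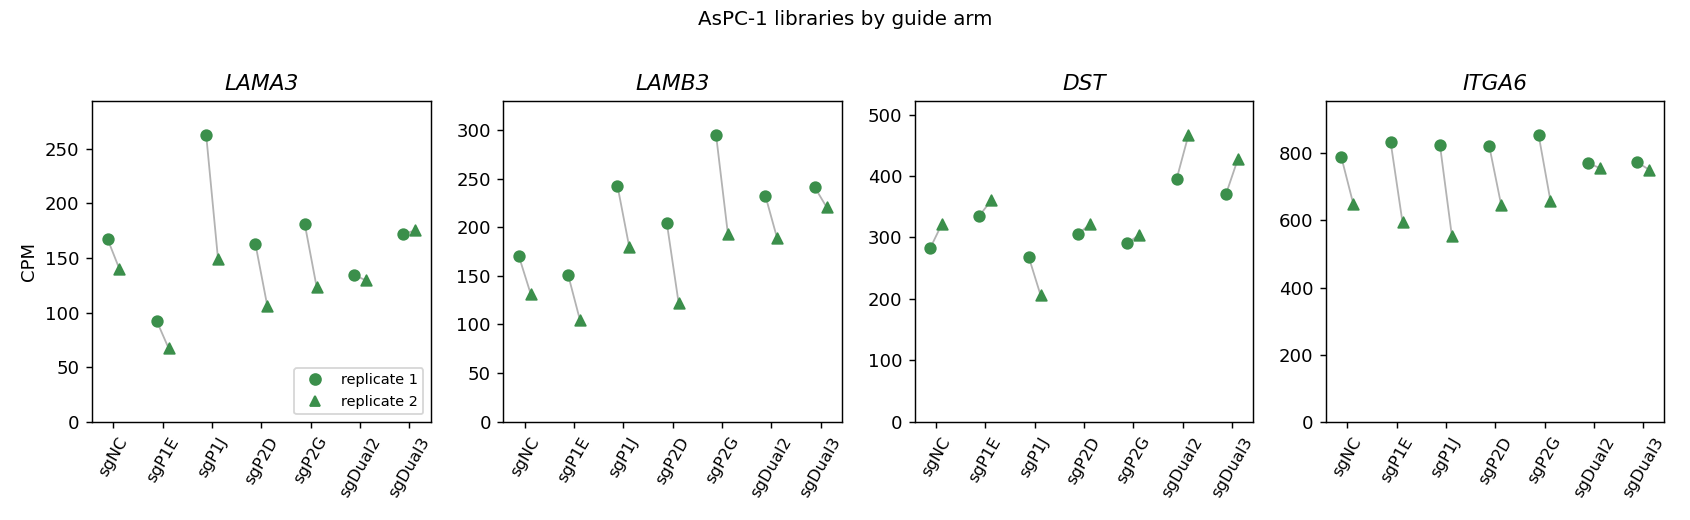
CPM of LAMA3, LAMB3, DST and ITGA6 in the 14 AsPC-1 libraries by guide arm, on linear axes from 0, with a circle for replicate 1 and a triangle for replicate 2 of each arm joined by a line. LAMA3 runs from 67.1 CPM with sgP1E to 263 CPM with sgP1J, DST is highest in the sgDual arms, and replicate 1 exceeds replicate 2 for ITGA6 in all 7 arms.

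The bases just before 1 RefSeq start of each laminin gene hold the AP-1 motif TGANTCA, where N is any base. AP-1 factors (FOS and JUN family dimers) are known regulators of laminin-332 genes in epithelia. RefSeq promoter windows (GRCh38.p14, 250 bases before to 50 after a start) were matched for 6 of the 9 genes, 11 windows in all. ITGA3, ITGB4 and PLEC had no entry. Stretches of 4 genes are shown, for LAMA3 and LAMB3 because they hold the motif, and for ITGA2 and COL17A1 because these rose and fell most among the 9 with P1-a2 in Panc10.05. They run 5′ to 3′ on the gene's strand and leave out bases that GENCODE 29 places in an untranslated exon, except 29 bases around each LAMA3 match, which lie in such an exon of a longer transcript. Capitals mark the TGANTCA match in the LAMA3 lines, and in the others any match to TGANTCA, to the HNF4 motif CAAAGTCCA or to the GC box GGGCGG on either strand.
LAMA3 first match, chr18:23872884-23872912, plus strand: ctggcacaggcTGACTCAtgtgtgaagtt
LAMA3 second match, chr18:23872940-23872968, plus strand: ccttcctcaccTGAGTCAggcaggcccgg
LAMB3, chr1:209651395-209651524, minus strand: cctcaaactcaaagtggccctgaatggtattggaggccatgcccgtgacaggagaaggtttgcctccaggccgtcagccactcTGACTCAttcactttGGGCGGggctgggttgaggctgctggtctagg
ITGA2, chr5:52989202-52989325, plus strand: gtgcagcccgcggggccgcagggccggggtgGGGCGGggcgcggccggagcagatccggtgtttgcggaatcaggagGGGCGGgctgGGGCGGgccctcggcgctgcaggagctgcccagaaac
COL17A1, chr10:104085958-104086030, minus strand: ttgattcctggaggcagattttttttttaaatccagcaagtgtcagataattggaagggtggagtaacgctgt
LAMA3 has TGACTCA beginning 125 bases and TGAGTCA beginning 69 bases before its RefSeq start, and LAMB3 has TGACTCA beginning 67 bases before its start. The LAMB3 window is 1 of 3 for that gene, and the other 2 hold no TGANTCA. Those 2 lie nearer the outermost annotated start of LAMB3, at 209652466, while the window with the motif lies inside the gene. The LAMA3 window, which begins at 23872770, also lies inside its gene, which begins at 23689443 and has 15 distinct annotated transcript starts. Gene counts do not show which start was used. Over all 35116 windows of this length, 7.71% hold TGANTCA, 0.384% hold CAAAGTCCA and 45% hold GGGCGG. Of the 11 windows of these genes, 3 hold TGANTCA (the third is a DST window, 25 bases after its start), 8 hold GGGCGG and 0 hold CAAAGTCCA. TGANTCA overlaps neither of the other motifs in them. A match is a run of letters only, and the windows cover a small part of each gene's regulatory sequence.

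The integrins split in Panc10.05. The hemidesmosome pair fell: ITGA6 (chr2:172427354-172506282, plus strand) read 397 and 368 CPM in the controls, 179.8 and 194 CPM with P1-a2 and 284 and 269 CPM with P2-a8. ITGB4 (chr17:75721328-75757818, plus strand) read 426 and 411, 179 and 199.7 and 335 and 377 CPM in the same groups. Neither gene's groups overlapped, and for both the P1-a2 libraries were the lowest. The log2 fold change with P1-a2 was -1.03 ± 0.061 (adjusted p = 1.38e-18) for ITGA6 and -1.14 ± 0.064 (adjusted p = 7.73e-19) for ITGB4. With P2-a8 the changes were -0.47 ± 0.06 (adjusted p = 2.01e-08) and -0.23 ± 0.063 (adjusted p = 0.00228), the ITGB4 call being lost without P2-a8 replicate 1 (adjusted p = 0.148). The direct contrast of P1-a2 with P2-a8 gave -0.57 ± 0.061 (adjusted p = 2.72e-10) for ITGA6 and -0.91 ± 0.064 (adjusted p = 3.62e-15) for ITGB4. The per-length ratio of ITGB4 to ITGA6 was 1.04 to 1.08 in the control libraries, 0.962 to 0.996 with P1-a2 and 1.14 to 1.356 with P2-a8.

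The alpha-3 chain, which binds laminin outside hemidesmosomes, went the other way in the same libraries. ITGA3 (chr17:50055968-50090481, plus strand) read 489.7 and 466 CPM in the controls, 779 and 828 CPM with P1-a2 and 761 and 736 CPM with P2-a8. Both induced groups lay above the controls, by 0.75 ± 0.059 (adjusted p = 1.38e-14) and 0.65 ± 0.059 (adjusted p = 3.25e-12), and they did not differ by the test from each other (log2 fold change 0.10 ± 0.059, adjusted p = 0.156). Per length, ITGA3 relative to ITGA6 was 0.823 to 0.846 in control libraries, 2.85 to 2.89 with P1-a2 and 1.79 to 1.82 with P2-a8. Per length ITGA6 was thus higher in the controls and ITGA3 in both induced groups, while in CPM ITGA3 was higher in every group. In BxPC3 that ratio was 0.657 to 0.688 in controls and 0.675 to 0.787 with P1-a2, which overlap. In AsPC-1 it was 0.305 to 0.313 with sgNC, 0.348 to 0.398 with sgP2 and 0.195 to 0.244 with sgDual. With sgP1 it was 0.28 to 0.379, a range that spans sgNC and overlaps sgP2.

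ITGA2 (chr5:52989326-53094779, plus strand), the collagen-binding chain, rose in all 3 lines, with HNF4A induced in Panc10.05 and BxPC3 but repressed in AsPC-1. In Panc10.05 it read 196 and 148 CPM in the controls, 379 and 475 CPM with P1-a2 and 435 and 397 CPM with P2-a8. The rise was 1.31 ± 0.21 (adjusted p = 0.0105) with P1-a2 and 1.27 ± 0.21 (adjusted p = 0.0159) with P2-a8, the second call being lost without either P2-a8 library (adjusted p = 0.0881 and 0.0691). In BxPC3 it read 421 and 478 CPM in the controls, 624 and 789.9 CPM with P1-a2 and 432 and 509 CPM with P2-a8. Only P1-a2 stood apart there, by 0.65 ± 0.14 (adjusted p = 0.0126) against the controls (adjusted p = 0.0692 without EV-NC replicate 1) and 0.59 ± 0.14 (adjusted p = 0.0261) against P2-a8 (adjusted p = 0.1 without P2-a8 replicate 1). The P2-a8 change in BxPC3 was 0.064 ± 0.14 (adjusted p = 0.855).

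Repression of both promoters in AsPC-1 raised ITGA2 as well. It read 179 and 190.3 CPM in sgNC, 236 and 252 CPM with sgDual2 and 225 and 259 CPM with sgDual3. All 4 sgDual libraries were above the other 10 libraries of the line, of which the highest, with sgP2D, read 207 CPM. The change against sgNC was 0.39 ± 0.10 (adjusted p = 0.00724), and it was lost without sgNC replicate 1 (adjusted p = 0.0942). Against sgP1 it was 0.64 ± 0.082 (adjusted p = 3.43e-05) and against sgP2 0.41 ± 0.082 (adjusted p = 0.000852). The 4 sgP1 libraries, at 175 and 151 and at 154 and 141 CPM, lay below both sgNC libraries without a call (log2 fold change -0.25 ± 0.10, adjusted p = 0.455). ITGA2 was called higher in sgP2 than in sgP1 only without sgP1E replicate 1 or without that guide (adjusted p = 0.0412 and 0.0287).

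ITGA3 fell with sgDual, opposite to its rise with induced HNF4A in Panc10.05. It read 361 and 306 CPM in sgNC, 226 and 222 CPM with sgDual2 and 283 and 259 CPM with sgDual3, so the groups did not overlap. The change was -0.43 ± 0.15 (adjusted p = 0.0344) against sgNC, -0.43 ± 0.12 (adjusted p = 0.0122) against sgP1 and -0.75 ± 0.12 (adjusted p = 0.000199) against sgP2. The call against sgNC was lost without sgNC replicate 1 (adjusted p = 0.307), without sgDual2 replicate 1 or 2 (adjusted p = 0.0793 and 0.0824), without sgDual3 replicate 2 (adjusted p = 0.0505), without guide sgDual2 (adjusted p = 0.233) and without the filter on low counts (adjusted p = 0.0843). The 3 highest ITGA3 values in AsPC-1 were among the sgP2 libraries, at 429 and 354 CPM for sgP2D and 485 and 393 CPM for sgP2G. Against sgP1 the sgDual and sgP1 libraries overlapped, and the call was lost without guide sgP1E (adjusted p = 0.129) or sgDual2 (adjusted p = 0.169).

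ITGA6 and ITGB4 were not called with any guide set. ITGA6 averaged 719.5 CPM in sgNC, 702 in sgP1, 745 in sgP2 and 763 in sgDual, and in each of the 7 arms the library numbered 1 was the higher. ITGB4 averaged 1712 CPM in sgNC, 1642 in sgP1, 1716 in sgP2 and 1699 in sgDual. For sgDual against sgNC the changes were 0.085 ± 0.16 (adjusted p = 0.727) and -0.011 ± 0.11 (adjusted p = 0.95). In BxPC3 ITGA6 read 1045 and 1103 CPM in the controls, 997 and 989 CPM with P1-a2 and 1087 and 1148 CPM with P2-a8. The 2 P1-a2 libraries were the lowest of the line, with a log2 fold change of -0.11 ± 0.052 (adjusted p = 0.118) against the controls and -0.17 ± 0.052 (adjusted p = 0.035) against P2-a8, and the second call was lost without any single one of those 4 libraries (adjusted p = 0.0909 to 0.312), under DESeq2 (adjusted p = 0.0604) and with only these libraries fitted (adjusted p = 0.0653). 

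In the main fit, which takes no account of the replicate number, ITGB4 and ITGA3 were not called in BxPC3. With the replicate number as a block, both were called lower with P1-a2 than with P2-a8 (log2 fold change -0.15, adjusted p = 0.00328 and -0.098, adjusted p = 0.0419). Without the filter on low counts ITGB4 passed in that contrast too (adjusted p = 0.0435). ITGB4 read 937 and 985 CPM in its controls, 869 and 969 CPM with P1-a2 and 966 and 1077 CPM with P2-a8 (log2 fold change -0.064 ± 0.068, adjusted p = 0.521 for P1-a2). ITGA3 read 1031 and 1138 CPM in the same controls, 1009.9 and 1167 CPM with P1-a2 and 1104 and 1224 CPM with P2-a8 (log2 fold change 0.005 ± 0.08, adjusted p = 0.971 for P1-a2). In all 3 arms both genes were higher in the library numbered 2, as were all of the 9 genes except ITGA6.

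ITGA6 shares its locus with ITGA6-AS1, AC078883.1 and AC078883.2 on the opposite strand. How strand was used in counting is not given in the sources used here, so reads of these genes may not be separable.

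COL17A1 (chr10:104031286-104085957, minus strand), the transmembrane collagen of hemidesmosomes also known as BP180, fell with P1-a2 in both induction lines and with sgDual. In Panc10.05 it read 182 and 174 CPM in the controls, 61.2 and 66.8 CPM with P1-a2 and 139 and 188 CPM with P2-a8. The P1-a2 libraries were far below both other groups, whose ranges overlapped. The log2 fold change was -1.48 ± 0.15 (adjusted p = 0.000206) against the controls and -1.35 ± 0.15 (adjusted p = 0.000531) against P2-a8, the largest of the 9 genes in both contrasts. P2-a8 against the controls gave -0.13 ± 0.14 (adjusted p = 0.529), and COL17A1 was called lower only without P2-a8 replicate 2 (adjusted p = 0.000172).

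In BxPC3, where COL17A1 was far more abundant, it fell by less. It read 2009 and 2191 CPM in the controls, 1652 and 1748 CPM with P1-a2 and 2001 and 2199 CPM with P2-a8. P1-a2 was below both groups without overlap, with log2 fold changes of -0.30 ± 0.061 (adjusted p = 0.00284) and -0.30 ± 0.061 (adjusted p = 0.00483), the latter lost without P2-a8 replicate 2 (adjusted p = 0.0543). In AsPC-1 it read 2802 and 2494 CPM in sgNC, 1814 and 1639 CPM with sgDual2 and 1851 and 1703 CPM with sgDual3. All 4 sgDual libraries were below the other 10, whose lowest, with sgP1J, read 1996 CPM. The log2 fold change was -0.60 ± 0.10 (adjusted p = 0.000389) against sgNC, -0.43 ± 0.084 (adjusted p = 0.00101) against sgP1 and -0.39 ± 0.084 (adjusted p = 0.00149) against sgP2. These 3 calls kept an adjusted p under 0.05 in every alternative at that threshold, but none reached a log2 fold change of 1 in size. The sgP1 and sgP2 libraries were not called against sgNC for COL17A1 (-0.17 ± 0.10 (adjusted p = 0.7) and -0.21 ± 0.10 (adjusted p = 0.311)). The 4 sgP2 libraries lay below both sgNC libraries, while the sgP1 and sgNC ranges overlapped. The summed fibroblast markers moved with sgDual too, from 165 to 179 CPM in sgNC to 279.5 to 301 CPM, with LUM at 171 ± 9.49 CPM and 285 ± 9.8 CPM (SD) while the other 6 markers had at most 38 counts in any AsPC-1 library. The part of LUM in these results was not tested. MIR936 lies within COL17A1, and MIR4260 within LAMB3, on the same strand as the host gene.

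DST (chr6:56457987-56954628, minus strand) encodes dystonin, whose epithelial form BP230 links hemidesmosomes to keratin, and its count adds all isoforms. In Panc10.05 it read 339 and 349 CPM in the controls, 319.7 and 295 CPM with P1-a2 and 362 and 381 CPM with P2-a8. DST was lower with P1-a2 than in the controls (log2 fold change -0.16 ± 0.059, adjusted p = 0.0153, lost without P1-a2 replicate 2 at adjusted p = 0.255) and lower than with P2-a8 (log2 fold change -0.28 ± 0.059, adjusted p = 0.000168). In BxPC3 it read 414 and 451 CPM in the controls, 519 and 568 CPM with P1-a2 and 496 and 562.4 CPM with P2-a8. Both isoforms raised it there, by 0.33 ± 0.073 (adjusted p = 0.00501) and 0.29 ± 0.073 (adjusted p = 0.0355). The first call was lost without EV-NC replicate 1 (adjusted p = 0.0618), and the second without EV-NC replicate 1 or 2 or P2-a8 replicate 2 (adjusted p = 0.272, 0.0839 and 0.274).

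In AsPC-1 DST read 282 and 322 CPM in sgNC, 395 and 467 CPM with sgDual2 and 370.4 and 427 CPM with sgDual3. These 4 libraries were the highest of the line. The change was 0.46 ± 0.17 (adjusted p = 0.0478) against sgNC, 0.50 ± 0.14 (adjusted p = 0.0093) against sgP1 and 0.44 ± 0.14 (adjusted p = 0.0154) against sgP2. The first was at the edge of the threshold and was lost in 10 of 14 alternatives at the same threshold, among them without either sgNC library (adjusted p = 0.3 and 0.0856), without sgDual2 replicate 1 or 2 (adjusted p = 0.0589 and 0.104) and without sgDual3 replicate 2 (adjusted p = 0.0852). The call against sgP1 was lost without guide sgDual2 (adjusted p = 0.0679), and that against sgP2 without guide sgP2D, sgP2G or sgDual2 (adjusted p = 0.0549, 0.1 and 0.0938). DST was called higher in sgP2 than in sgP1 without guide sgP1E (adjusted p = 0.0311).

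DST also differed between the P1 guides (log2 fold change 0.55 ± 0.12, adjusted p = 0.00889), at 336 and 360.4 CPM with sgP1E and 268 and 206 CPM with sgP1J. That call was lost without sgP1E replicate 2 (adjusted p = 0.0646) or sgP1J replicate 2 (adjusted p = 0.0734). PLEC passed in this contrast without sgP1J replicate 1 (adjusted p = 0.0356). In the main fit none of the 9 genes was called between sgP2D and sgP2G, where 1.69% of all genes were called and ITGA2 had an unadjusted p under 0.05. Nor was any called in it between sgDual2 and sgDual3, where 0.883% of all genes were called and none of the 9 had an unadjusted p that low.

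PLEC, for plectin, the plakin that binds integrin beta-4 to keratin, gave the largest CPM of the 9 genes in Panc10.05. It read 2654 and 2251 CPM in the controls, 2209.9 and 2396 CPM with P1-a2 and 2846 and 3304 CPM with P2-a8. The P2-a8 libraries were the highest, by 0.33 ± 0.075 (adjusted p = 0.000884) against the controls, and P1-a2 was lower than P2-a8 (log2 fold change -0.42 ± 0.075, adjusted p = 6.35e-05). Under DESeq2 the first call was lost (adjusted p = 0.0731). P1-a2 against the controls gave -0.091 ± 0.075 (adjusted p = 0.305), which passed without GFP-NC replicate 2 (adjusted p = 0.0117). In BxPC3 PLEC read 1972 and 2072 CPM in the controls, 1896 and 2155 CPM with P1-a2 and 1678 and 1880.3 CPM with P2-a8. In AsPC-1 it averaged 1925 CPM in sgNC, 1975 in sgP1, 2139.5 in sgP2 and 2156 in sgDual. In the fits described here PLEC was not called in any contrast within these lines. Without the filter on low counts it was called in BxPC3 for P2-a8 against the controls (adjusted p = 0.00906) and for P1-a2 against P2-a8 (adjusted p = 0.00207). Its P1-a2 level in BxPC3 passed against P2-a8 without P1-a2 replicate 1 or P2-a8 replicate 2 (adjusted p = 0.0199 and 0.0253; 0.0877 with all).

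The responses of Panc10.05 and BxPC3 to the same isoform were compared by an interaction contrast in 1 fit of their 12 libraries. For P1-a2, 5 of the 9 genes differed between lines, where 36.4% of all genes did. ITGA6, ITGB4, COL17A1 and DST changed more negatively in Panc10.05 (-0.91, -1.07, -1.16 and -0.48 on the log2 scale) and ITGA3 more positively (0.76), with adjusted p between 1.15e-08 and 0.000638. These 5 kept an adjusted p under 0.05 in all 13 alternatives at that threshold, and only ITGB4 and COL17A1 also reached a log2 difference of 1 in size. DST had opposite called directions in the fits of the single lines, -0.16 in Panc10.05 and 0.33 in BxPC3. LAMB3 was not called (log2 fold change 0.68 ± 0.23, adjusted p = 0.0515) and passed in DESeq2 (adjusted p = 0.0109), with other library scaling (adjusted p = 0.0394 and 0.026) and without BxPC3 EV-NC replicate 1 or BxPC3 P1-a2 replicate 2 (adjusted p = 0.0191 and 0.0235). ITGA2 passed under DESeq2 (adjusted p = 0.0461; 0.117 in edgeR).

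For P2-a8, 5 genes differed between lines, where 23.5% of all genes did. ITGA2, ITGA3 and PLEC were more positive in Panc10.05 (1.21, 0.55 and 0.51) and ITGA6 and ITGB4 more negative (-0.52 and -0.32). ITGA3 and ITGA6 kept an adjusted p under 0.05 in all 13 alternatives at that threshold, with differences under 1 in size. ITGA2 lost it without Panc10.05 P2-a8 replicate 1 or 2, Panc10.05 GFP-NC replicate 2, BxPC3 P2-a8 replicate 1 or BxPC3 EV-NC replicate 1 or 2 (adjusted p = 0.0501 to 0.0834), and without the filter on low counts (adjusted p = 0.0519). ITGB4 lost it without Panc10.05 P2-a8 replicate 1, Panc10.05 GFP-NC replicate 1 or 2, BxPC3 EV-NC replicate 1 or BxPC3 P2-a8 replicate 2 (adjusted p = 0.0593 to 0.204). PLEC lost it without Panc10.05 GFP-NC replicate 2, BxPC3 P2-a8 replicate 1 or BxPC3 EV-NC replicate 2 (adjusted p = 0.053 to 0.0797). COL17A1 passed without Panc10.05 P2-a8 replicate 2 (adjusted p = 0.0349). The difference between isoforms itself differed between lines for 5 genes, where 22.3% of all genes did, and this contrast reuses the induced libraries of the other 2. COL17A1, ITGA6, ITGB4, DST and PLEC were more negative in Panc10.05, at -1.04, -0.38, -0.75, -0.30 and -0.59. DST lost this call without any of 4 libraries (Panc10.05 P1-a2 replicate 2, Panc10.05 P2-a8 replicate 2, BxPC3 P2-a8 replicate 1 or BxPC3 P1-a2 replicate 2, adjusted p = 0.0607 to 0.145), and ITGA3 passed without BxPC3 P1-a2 replicate 2 (adjusted p = 0.0299). Line, doxycycline dose, control construct and HNF4A level change together here and cannot be told apart.

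**Figure D4:**
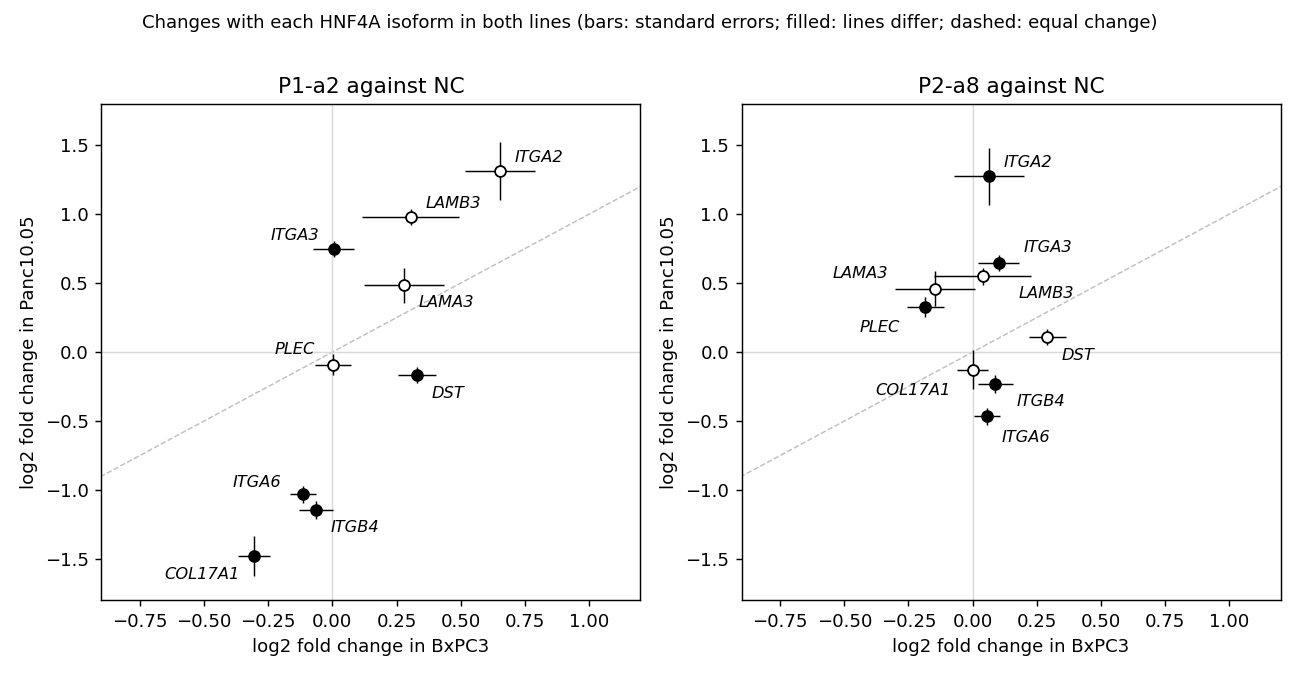
log2 fold change of each gene in BxPC3 (horizontal) and Panc10.05 (vertical) for P1-a2 and for P2-a8 against NC, from the fit of each line, with standard error bars and a dashed line of equal change. Filled points differ between lines in the interaction contrast: ITGA3, DST, ITGA6, ITGB4 and COL17A1 for P1-a2, and ITGA2, ITGA3, PLEC, ITGB4 and ITGA6 for P2-a8.

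Other genes of the adhesion system were read from lists set beside the 9, whose shares called are to be read against the same background percentages. Values in brackets are log2 fold changes ± SE. Of basement membrane and anchoring fibril genes, 4 of 11 tested genes were higher and 7 lower in Panc10.05 and 3 of 12 tested genes were higher and 6 lower in BxPC3 with P1-a2. With P2-a8, 6 of 11 tested genes were higher and 3 lower in Panc10.05, where the list's median log2 fold change was 0.73 against -0.63 with P1-a2, and 3 of 12 were higher and 3 lower in BxPC3. HSPG2, for perlecan, was lower with P1-a2 in both (-1.93 ± 0.16, adjusted p = 6.56e-05 and -1.22 ± 0.086, adjusted p = 6.7e-06). With sgDual, 4 of 7 tested genes were higher and 0 lower in that list, and COL7A1, the anchoring fibril collagen, rose most (2.38 ± 0.70, adjusted p = 0.0207).

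Among other integrin subunits, 6 of 11 tested genes were higher and 0 lower with sgDual, among them ITGB6 (1.08 ± 0.31, adjusted p = 0.016) and ITGAV (1.05 ± 0.11, adjusted p = 7.26e-06). ITGA1, another collagen-binding alpha chain, rose with P1-a2 in Panc10.05 (2.22 ± 0.085, adjusted p = 5.5e-22) and BxPC3 (0.80 ± 0.10, adjusted p = 0.00011), where ITGA2 rose too. It also rose with P2-a8 in Panc10.05 (1.67 ± 0.085, adjusted p = 1.03e-17), as ITGA2 did. In BxPC3 ITGA1 rose with P2-a8 (0.43 ± 0.096, adjusted p = 0.0235), but ITGA2 was not called there (adjusted p = 0.855). Of hemidesmosome partners (tetraspanins, basal keratins and the like), 4 of 9 tested genes were higher and 3 lower with P1-a2 in Panc10.05 and 2 of 10 tested genes were higher and 0 lower with sgDual. CD151, the tetraspanin bound to laminin-binding integrins, rose with sgDual (0.63 ± 0.10, adjusted p = 0.000198). Among other plakins PPL, for periplakin of the cornified envelope and desmosomes, fell with P1-a2 in Panc10.05 (-1.54 ± 0.066, adjusted p = 2.1e-23) and rose with sgDual (2.93 ± 0.30, adjusted p = 1.83e-05) and with sgP2 (1.45 ± 0.28, adjusted p = 0.0169), where none of the 9 genes was called. In the desmosome list, 0 of 10 tested genes were higher and 5 lower with sgP2, DSG3 most (-1.72 ± 0.29, adjusted p = 0.00901).

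Of 15 tested AP-1, p63 and related epithelial regulators in Panc10.05, 8 were higher and 4 lower with P1-a2, where 62% of all genes were called. ATF3 (1.70 ± 0.077, adjusted p = 1.51e-22) and JUN (1.32 ± 0.065, adjusted p = 2.48e-21) were among those that rose. In BxPC3 with P1-a2, 1 of 16 tested regulators was higher and 7 lower, among them ELF3 (-0.85 ± 0.15, adjusted p = 0.00626) and KLF5 (-0.84 ± 0.088, adjusted p = 8.42e-05). With sgDual, 6 of 15 tested genes were higher and 1 lower, FOSB most (1.72 ± 0.24, adjusted p = 7.93e-05), and neither LAMA3 nor LAMB3 was called. The part of these regulators in the changes of LAMA3 and LAMB3 was not tested. Summed epithelial markers moved with the groups in Panc10.05, from 6213 to 6262 CPM in controls to 7943 to 9059 CPM with P1-a2 and 10046 to 10525 CPM with P2-a8. Their part in the changes of the 9 genes was not tested. In RNA from whole cultures, fewer cells with a transcript and less RNA per cell cannot be told apart.

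Across all 26 libraries, with log2 CPM centred within each line, LAMA3 and LAMB3 had a Pearson r of 0.78, and ITGA6 and ITGB4 one of 0.67. Within lines the r of ITGA6 and ITGB4 was 0.95 over 6 libraries of Panc10.05, 0.79 over 6 of BxPC3 and -0.41 over 14 of AsPC-1. For LAMA3 and LAMB3 the r within lines was 0.83, 0.92 and 0.78. Of 10684 genes with a mean of at least 5 CPM that were tested in all 3 tables, TGFA (r = 0.86) and LTO1 (r = 0.83) were among those with the highest r to the mean of LAMA3 and LAMB3. TGFA is a ligand of the EGF receptor. For the mean of ITGA6 and ITGB4 the 3 genes with the highest r were TROAP (r = 0.93), ZC3HAV1 (r = 0.92) and BAIAP2 (r = 0.92). By Spearman's rho the 3 for ITGA6 and ITGB4 were BAIAP2 (0.83), CDC25B (0.79) and LAMA5 (0.78), while TROAP had 0.68 and ZC3HAV1 0.52. The points share cell line, construct and library, and these coefficients are descriptions only.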

How the data were processed

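RNA from 26 cell-line libraries was sequenced as paired-end reads on a NovaSeq after poly(A) selection with a directional kit, per the labels' protocols. The authors deposited 1 table of raw counts per gene for each cell line, with whole numbers that were not normalized. The submitters' processing notes name STAR 2.7.9a, cutadapt 1.16, featureCounts 1.6.3, DESeq2 1.36.0 and the build GRCh38. The annotation release and the strand setting of the counting are not given in the sources used here.

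Ensembl identifiers were matched to GENCODE 29 for symbols, positions and merged exon lengths (99.9% matched). The 9 genes were taken by symbol. Group and replicate came from sample titles. Totals were 26079388 to 50662077 counts per library. Each table was fitted separately in edgeR 4.0.16 (R 4.3.3): genes with low counts were removed with filterByExpr, libraries were scaled by TMM, and a robust quasi-likelihood fit over all groups of a line gave 12 contrasts between groups. A fit with guides as groups gave 3 contrasts between guides, and a joint fit of Panc10.05 and BxPC3 gave 3 differences between lines. P-values were adjusted by Benjamini-Hochberg over all genes tested in a contrast, with a threshold of 0.05. CPM and RPKM were computed from the counts with TMM scaling. The test was tried on simulated data before use.

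Besides the 9 genes and HNF4A, the rule was to name from each list up to 2 genes with the largest called change in a contrast with controls and a mean of at least 5 CPM, and for likeness the 3 genes with the highest Pearson r. The text does not report every gene the rules name. The 9 genes, the lists and the tests were chosen with earlier results of these data known. Alternatives were RLE size factors, total counts alone, DESeq2 1.42.0, no filter on low counts, an added requirement of a log2 fold change of 1 or more in size, a replicate block, only the compared groups fitted, and each library or guide left out.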

Additional observations from a re-analysis of the deposited data

Results flagged for a closer look

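One library stood apart within its group. ITGB4 read 1487 CPM in the sgP2D replicate 1 library of AsPC-1, below the other 3 sgP2 libraries, with a gap to its neighbour that was 0.838 of the range of the group, past Dixon's 95% limit for 4 samples. About 1 in 20 groups passes that limit by chance.

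The responses of Panc10.05 and BxPC3 differed by the interaction contrast (edgeR's quasi-likelihood test, adjusted p) in 15 cases, given here as Panc10.05 minus BxPC3 on the log2 scale. For P1-a2 against NC these were ITGA6 at -0.91 (1.15e-08), ITGB4 at -1.07 (6.22e-08), ITGA3 at 0.76 (4.22e-06), DST at -0.48 (0.000379) and COL17A1 at -1.16 (0.000638). For P2-a8 against NC they were ITGA6 at -0.52 (6.82e-05), ITGA3 at 0.55 (0.000382), ITGA2 at 1.21 (0.023), PLEC at 0.51 (0.0239) and ITGB4 at -0.32 (0.028). For P1-a2 against P2-a8 they were ITGB4 at -0.75 (2.18e-05), ITGA6 at -0.38 (0.00183), COL17A1 at -1.04 (0.00269), PLEC at -0.59 (0.0123) and DST at -0.30 (0.0272).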

How the results depend on the processing

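No called change of the 9 genes reversed its sign under the alternatives run. Apart from the requirement on the size of the change, of 57 called values 33 kept the call in all alternatives and 24 lost it in at least 1, while 30 of 105 uncalled values passed in at least 1. Summed CPM of the 9 genes in the controls moved by less than the spread between libraries when total counts alone set the scale. By Spearman in place of Pearson, 1 of the 3 genes most like ITGA6 and ITGB4 was shared. With 2 libraries per arm, a library left alone in its arm is assumed to vary like those of the other arms. The lowest count of any of the 9 genes in a library was 2229, for LAMA3 in AsPC-1 sgP1E replicate 2.

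When a log2 fold change of 1 or more in size was also required, the number of the 9 genes called was 4 of 8 for P1-a2 against NC, 1 of 7 for P2-a8 against NC and 1 of 6 for P1-a2 against P2-a8 in Panc10.05. It was 0 in all 3 BxPC3 contrasts and in the 3 sgDual contrasts, 1 of 2 between sgP1E and sgP1J, and 2, 1 and 1 of 5 for the differences between lines in P1-a2 against NC, P2-a8 against NC and P1-a2 against P2-a8. Without the filter on low counts it was 2 in place of 1 for BxPC3 P2-a8 against NC (1982 in place of 1232 of all genes), 5 in place of 3 for BxPC3 P1-a2 against P2-a8 (4580 in place of 3963 of all genes), 2 in place of 4 for sgDual against sgNC (5241 in place of 6048 of all genes), 5 in place of 2 between sgP1E and sgP1J (3009 in place of 2467 of all genes), 2 in place of 0 between sgP2D and sgP2G (649 in place of 288 of all genes), and 1 in place of 0 between sgDual2 and sgDual3 (417 in place of 150 of all genes). For the difference between lines in P2-a8 against NC it was 4 in place of 5, ITGA2 being lost. Without guide sgDual2 it was 2 of 4 against sgNC and 2 of 4 against sgP1, and without guide sgP1E it was 2 in place of 0 for sgP2 against sgP1.

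Leaving out 1 library in turn gave 4 to 6 for Panc10.05 P2-a8 against NC, 1 to 3 for BxPC3 P1-a2 against NC, 0 to 1 for BxPC3 P2-a8 against NC, 1 to 3 for BxPC3 P1-a2 against P2-a8, 1 to 4 for sgDual against sgNC, 0 to 1 for sgP2 against sgP1, 2 to 5 for the difference between lines in P2-a8 against NC, and 0 to 2 between sgP1E and sgP1J.

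The number of all genes called varied by more than 1.5 times in every contrast when the requirement on the size of the change is among the alternatives. Most of the lowest numbers below come from that requirement, which can only lower a count. For P1-a2 against NC in Panc10.05 it gave 3385, where the main fit gave 10699, the replicate block 10562 and the fit without the filter 10599. The lowest and highest over the alternatives were 3385 and 10691 in Panc10.05 for P1-a2 against NC, 1663 and 7981 for P2-a8 against NC and 1455 and 8297 for P1-a2 against P2-a8, and in BxPC3 1242 and 7333, 364 and 2886 and 526 and 5992 in the same order. In AsPC-1 they were 1 and 1242 for sgP1, 57 and 1103 for sgP2 and 1539 and 7591 for sgDual against sgNC, 161 and 2764 for sgP2 against sgP1, and 1143 and 7123 and 1745 and 8633 for sgDual against sgP1 and sgP2. For the differences between lines they were 2468 and 7762, 1199 and 5444 and 1078 and 5322, and between guides 619 and 4616, 124 and 778 and 53 and 558 for P1, P2 and both. The highest sgP1 count was without guide sgP1J and the lowest without sgNC replicate 2.

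Libraries of a line share replicate numbers, which the labels tie to no batch. Same-numbered libraries deviated together in AsPC-1 (correlation 0.257 to 0.749 over 21 pairs of arms) and BxPC3 (0.314 to 0.529 over 3), and not in Panc10.05 (-0.042 to 0.045 over 3). With the replicate number as a block, the number of the 9 genes called was 6 in place of 3 for BxPC3 P1-a2 against NC (7333 in place of 5652 of all genes), 3 in place of 1 for P2-a8 against NC (2886 in place of 1232 of all genes) and 8 in place of 3 for P1-a2 against P2-a8 (5992 in place of 3963 of all genes). It was 5 in place of 2 between sgP1E and sgP1J (4616 in place of 2467 of all genes), 1 in place of 0 between sgP2D and sgP2G (778 in place of 288 of all genes) and 1 in place of 0 between sgDual2 and sgDual3 (558 in place of 150 of all genes). In BxPC3 under the block, as log2 fold changes, LAMA3 and LAMB3 were called for P1-a2 against NC (0.28, adjusted p = 7.49e-06 and 0.31, adjusted p = 1.59e-06) and against P2-a8 (0.43, adjusted p = 7.8e-08 and 0.27, adjusted p = 1.47e-05), and LAMA3 for P2-a8 against NC (-0.15, adjusted p = 0.014). PLEC was called for P2-a8 against NC (-0.19, adjusted p = 0.00127) and P1-a2 against P2-a8 (0.19, adjusted p = 0.000534). The block also called ITGB4 and ITGA3 for P1-a2 against P2-a8 (-0.15, adjusted p = 0.00328 and -0.098, adjusted p = 0.0419). ITGA6 was called under it for P1-a2 against NC (-0.11, adjusted p = 0.019). Between lines the block called LAMB3 for P1-a2 (0.68, adjusted p = 6.9e-10) and LAMB3 and LAMA3 for P2-a8 (0.51, adjusted p = 7.73e-07 and 0.60, adjusted p = 0.0416). The cause of these changes was not tested.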
